A study of Homo sapiens with 16 samples.

Results

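The genes described here encode the machinery that destroys messenger RNA, taken as 49 named members out of the 60564 genes of the deposited table. They were 13 genes of deadenylation, 16 of decapping and 5′-to-3′ decay, 13 of the RNA exosome and the DIS3 family, and 7 of nonsense-mediated decay. A member was kept where its symbol, or the symbol of its Ensembl identifier, was on the list and its abundance was at least 1 CPM (reads of the gene scaled to a fixed library total). All 49 were found and kept. Among all genes, 16259 reached 1 CPM, and 16241 of them could be tested.

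Most cytoplasmic mRNAs lose their poly(A) tail first, through the PAN2-PAN3 pair and the CCR4-NOT complex. The shortened transcript is then either decapped by DCP2 with its cofactors and degraded by the 5′-to-3′ exonuclease XRN1, or degraded from its 3′ end by the exosome. Nonsense-mediated decay feeds transcripts with a premature stop codon into the same routes through UPF1. The mRNAs of these enzymes are themselves substrates, so their own turnover can be read in the same experiment.

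The samples were THP-1 cells, from a human leukaemia of monocytic type, with an ALKBH5 knockdown or as wild-type controls. ALKBH5 is a demethylase that erases m6A, the methylated form of adenosine, in RNA. In SLAM-seq a pulse of 4-thiouridine (4sU) marks newly made RNA, and the mark is read as T-to-C conversions. Both genotypes received 100 µM 4sU for 1 h and were then chased in 10 mM uridine for 0, 1.5, 4.5 or 7.5 h, with 2 libraries of polyadenylated RNA for each genotype and time, 16 in all. The labels used here name neither the knockdown reagent nor clones, and do not say whether replicates were separate cultures, so the p-values measure the spread between these libraries, which may be technical.

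The value of a gene in a library was its conversion rate, given in percent, which falls as labelled mRNA is lost and as unlabelled mRNA is made. Over all genes tested, the median rate was 1.18%, 1.09%, 0.732% and 0.533% in knockdown and 0.548%, 0.475%, 0.319% and 0.252% in control at 0, 1.5, 4.5 and 7.5 h. The knockdown libraries therefore stood higher as a whole, by 1.05 on the log2 scale, and each comparison was also made after centring every library on its own median. The share of genes listed at 0 ran from 2.39% to 12.9%, replicate libraries correlated across genes with Spearman's rho of 0.359 to 0.739, and the depth behind a rate is unknown. ALKBH5 itself ranged from 0.108% to 3.31% in knockdown and from 0.0982% to 0.812% in control. A rate does not measure abundance, so the depth of the knockdown could not be read from it. Of 10 monocyte markers, 9 had at least 1 CPM, with LYZ at 1276. Of 15 markers of other cells, 3 did, among them CDH1 at 2.88 CPM, while CD3D, CD79A, MS4A1, HBB and COL3A1 were among those at 0.

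Conversion rates of the decay-machinery mRNAs were higher in knockdown than in control, by about as much as the rates of all genes. Over the 4 times, 45 of the 49 members (91.8%) were higher in knockdown by limma, against 69.6% of all genes tested, and none was lower, against 0.172%. The median genotype effect was 1.09 log2 for the members and 1.02 for all genes, so the members differed from the whole in the count of calls more than in the size of the effect. Their median abundance was 31.5 CPM, against 9.66 CPM for all genes tested, and the part of abundance in that count was not tested. After centring, only LSM1 was higher and only LSM4 lower in knockdown, against 1.45% and 4.59% of all genes, and the median effect was 0.04 for the members and −0.02 for all genes. With no CPM minimum the centred count, in either direction, was 17 members instead of 2. The share of all genes was not counted at that setting, so the 17 cannot be called particular to the members.

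At the start of the chase 32 members (65.3%) were higher in knockdown, followed by 36 (73.5%) after 1.5 h, 33 (67.3%) after 4.5 h and 27 (55.1%) after 7.5 h. The shares of all genes tested were 35.6%, 38.9%, 38.3% and 33.5%. Centred, no member passed at any of these times. Both knockdown libraries stood above both control libraries in 47, 47, 43 and 39 members at the 4 times, against 71.1%, 74.3%, 68.2% and 58.9% of all genes. In 34 members this held at all 4 times, against 40.5% of all genes. It failed at 0, 4.5 and 7.5 h for EDC4 and at a pair of times each for CNOT3, CNOT8 and SMG6. At 7.5 h both control libraries of EDC4 and of CNOT8 lay above both knockdown libraries, and in the other cases the genotypes overlapped.

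**Figure D1:**
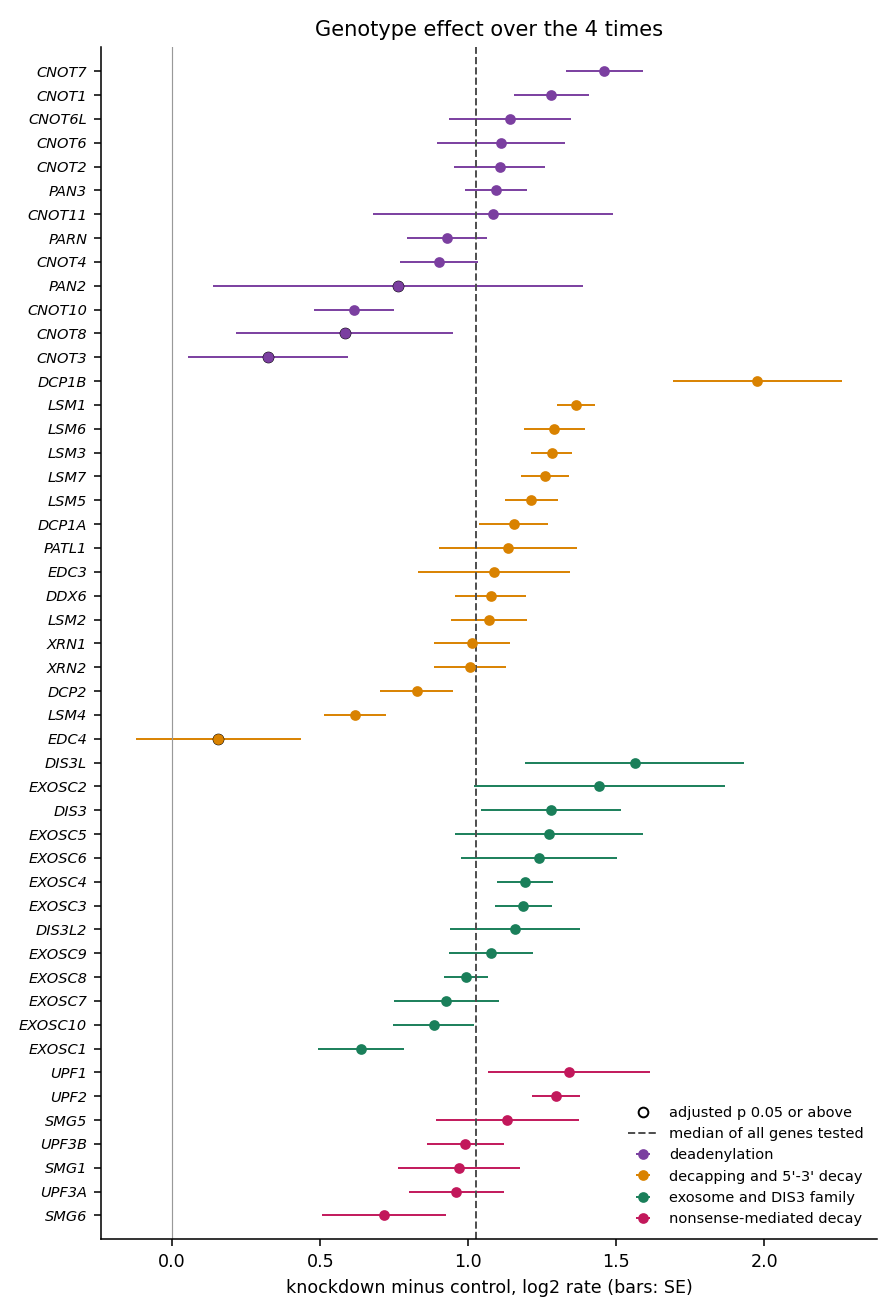
Genotype effect (knockdown minus control, log2 rate, horizontal axis) of the 49 members, by class, with bars for the standard error and black-edged points for those not past the threshold. The points lie around the median of all genes, 1.02 (dashed), from 0.16 for EDC4 to 1.98 for DCP1B, and centring takes 1.05 from each.

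During the chase the rate of most members fell in each genotype, and those that rose were LSM genes and, in knockdown, EXOSC8. In knockdown, 31 members (63.3%) fell and 4 rose, against 37.9% and 4.06% of all genes. In control, 25 members (51.0%) fell and 3 rose, against 34.4% and 3.45% of all genes. The median slope was −0.15 log2 per hour in knockdown and −0.13 in control for the members, and −0.13 and −0.11 for all genes. The 23 members that fell in both genotypes were 74.2% of those falling in knockdown and 92.0% of those falling in control. The same overlap was not counted over all genes, so it cannot be called particular to the members.

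The classes are described by their median slopes, and no difference between classes was tested. Their members overlapped, from −0.43 to −0.05 for deadenylation and from −0.27 to 0.09 for the exosome class in knockdown. Median slopes in knockdown were −0.22 for deadenylation, −0.10 for decapping, −0.08 for the exosome class and −0.21 for nonsense-mediated decay. In control they were −0.13, −0.05, −0.13 and −0.15. Relative to the common slope of −0.150 in knockdown and −0.136 in control, which centring removes, the decapping and exosome medians turned positive in both genotypes (0.05 and 0.07 in knockdown, 0.09 and 0.01 in control) and the deadenylation median in control did too (0.01). The centred median of all genes tested was itself above 0, at 0.02 in knockdown and 0.03 in control. In control the exosome and deadenylation medians lay below that of all genes, both before and after centring. Of the members called falling, 6 in knockdown and 5 in control had a centred slope above 0. Centred, 9 members rose and 5 fell in knockdown, against 17.7% and 8.62% of all genes, and 12 rose and 8 fell in control, against 17.6% and 9.46%. With no CPM minimum the 14 centred calls in knockdown became 6, and the share of all genes at that setting was not counted.

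**Figure D2:**
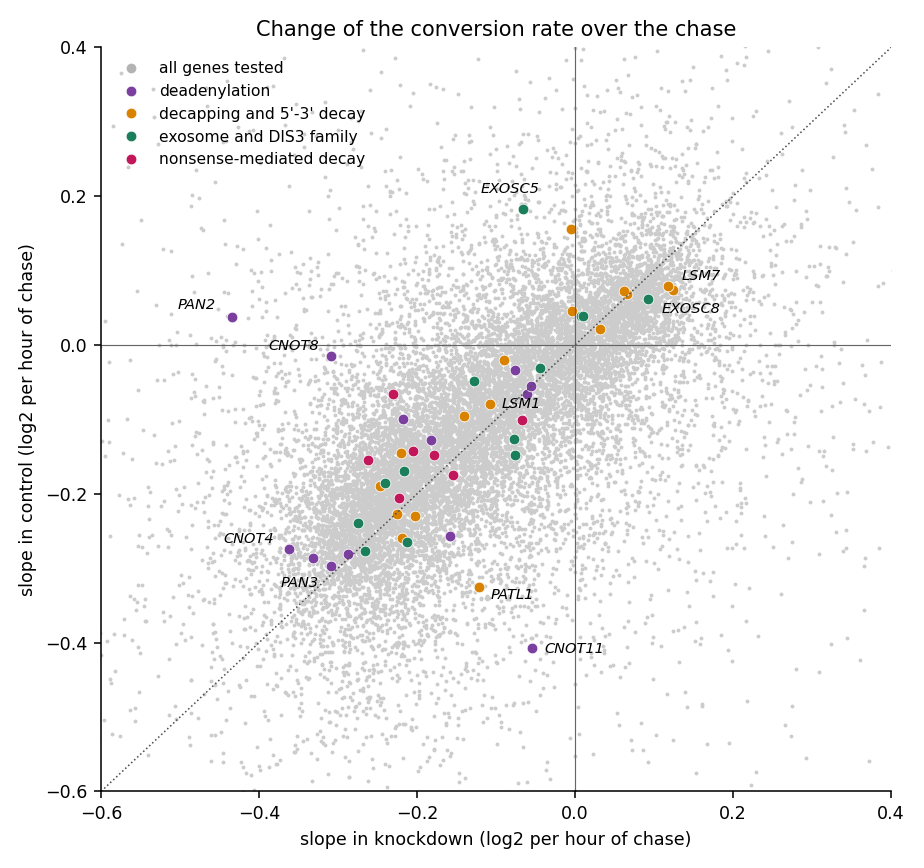
Slope of the log2 rate per hour of chase in knockdown (horizontal) and control (vertical) for all genes tested (grey, 235 of 16241 outside the axes) and the 49 members by class. Members scatter around the diagonal, with CNOT11, PAN2, CNOT8, EXOSC5 and PATL1 among the farthest from it. PAN3 and CNOT4 are among the steepest in both genotypes. LSM7 and EXOSC8 lie at the shallow end, where both slopes are above 0 before and after centring.

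**Figure D3:**
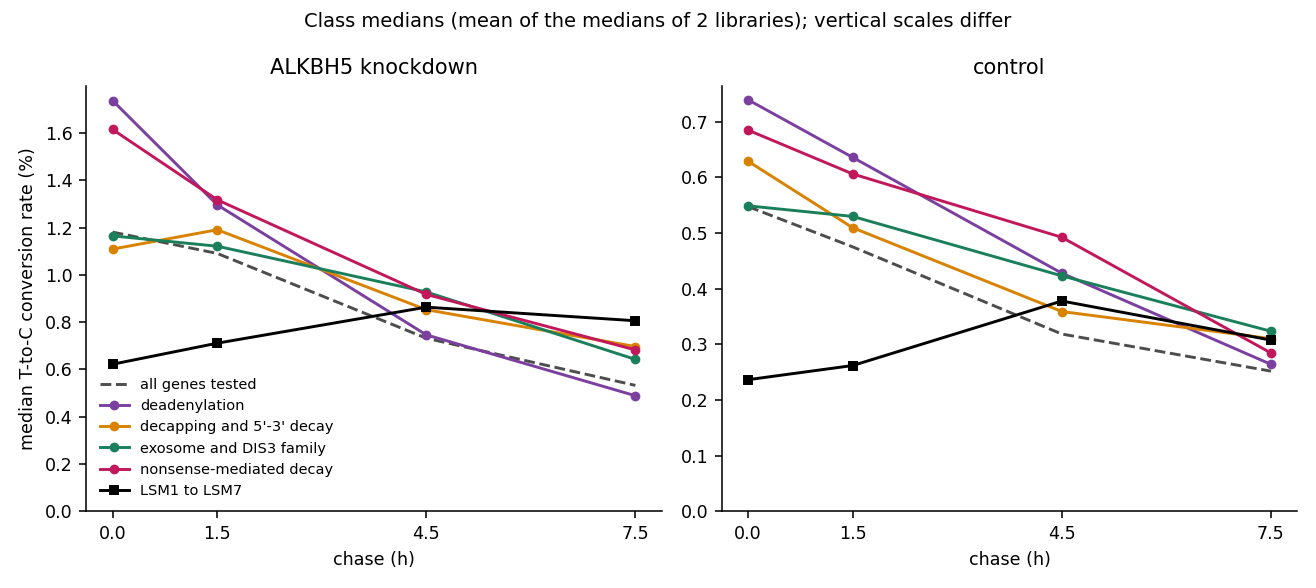
Median conversion rate (percent, vertical, scales differ between panels) of each class against hours of chase, in knockdown (left) and control (right). Deadenylation starts highest, at 1.74% in knockdown and 0.740% in control, and LSM1 to LSM7 start lowest, at 0.622% and 0.237%.

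AU-rich elements in the 3′ UTR are bound by proteins that can recruit the decay machinery to a transcript. Their pentamer core, ATTTA, was found on the sense strand of the 3′ UTR of the principal GENCODE 29 transcript in 18 of the 23 members that fell in both genotypes (78.3%), in 18 of the other 26 (69.2%) and in 68.4% of 12343 protein-coding genes tested. The members were sorted by their measured slopes, so these shares are a description, and a match is not a bound site. The stricter nonamer TTATTTATT, which contains the pentamer, was found in EXOSC6 and UPF1 alone among the members, and in 8.05% of all. Its first site in each is shown 5′ to 3′ on the transcribed strand, with the nonamer in capitals, as the members with the stricter element.
EXOSC6: atatttattTTATTTATTtattaatta
UPF1: cagggactcTTATTTATTcccattgct
These windows lie, on GRCh38, at chr16:70247245-70247271 (−) for EXOSC6 and chr19:18867924-18867950 (+) for UPF1, with the strand after each. GGACT, the commonest form of the m6A consensus, occurred anywhere in the transcript of 44 members (89.8%), against 91.1% of all. For CNOT4 the chosen transcript has no 3′ UTR, so no site could be found there. The chosen transcripts of PAN3, EXOSC4 and EXOSC9 have 3′ UTRs of 17, 46 and 53 bases, which leave little sequence to search.

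Deadenylation genes were higher in knockdown in 10 of 13 cases, against 69.6% of all genes tested. CNOT3, CNOT8 and PAN2 were not past the threshold, and no gene of the class passed after centring. CNOT1 is the scaffold on which the CCR4-NOT complex is built. CNOT1 in knockdown began the chase at 1.97% and 1.77%, stood at 1.85% and 1.79% after 1.5 h, then 1.36% and 1.39% by 4.5 h, and ended on 0.471% and 1.01%. In control, CNOT1 began the chase at 0.804% and 0.664%, stood at 0.572% and 0.617% after 1.5 h, then 0.483% and 0.549% by 4.5 h, and ended on 0.295% and 0.377%. Both libraries of knockdown lay above both of control at each time, with the 2 knockdown libraries apart from each other at 7.5 h only. The genotype effect was 1.28 (SE 0.127, adjusted p = 5.46e-07), a 2.43-fold difference. CNOT1 fell by 0.18 per hour in knockdown and by 0.13 per hour in control, paces that would take 5.48 h and 7.84 h to bring a 2-fold decline.

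The catalytic subunits of CCR4-NOT come in pairs of related enzymes. CNOT7 is a deadenylase of the CAF1 type. CNOT7 in knockdown began the chase at 1.07% and 1.05%, stood at 0.919% and 1.68% after 1.5 h, then 1.75% and 1.36% by 4.5 h, and ended on 0.683% and 0.626%. In control, CNOT7 began the chase at 0.347% and 0.386%, stood at 0.331% and 0.399% after 1.5 h, then 0.480% and 0.430% by 4.5 h, and ended on 0.314% and 0.240%. The groups did not overlap at any time, and the 3 highest knockdown libraries were at 1.5 and 4.5 h rather than at the start. Its genotype effect was 1.46 (SE 0.130, adjusted p = 1.78e-07), and its slopes were −0.08 (SE 0.0464, adjusted p = 0.203) in knockdown and −0.03 (SE 0.0464, adjusted p = 0.607) in control, neither past the threshold.

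CNOT8 is its close relative. CNOT8 in knockdown began the chase at 2.43% and 1.08%, stood at 2.06% and 2.37% after 1.5 h, then 0.754% and 0.632% by 4.5 h, and ended on 0.289% and 0.483%. In control, CNOT8 began the chase at 0.594% and 0.998%, stood at 0.358% and 1.21% after 1.5 h, then 0.274% and 0.704% by 4.5 h, and ended on 0.516% and 1.12%. The libraries were scattered, the genotypes overlapped at 4.5 h, and at 7.5 h both knockdown libraries lay below both control libraries. CNOT8 fell by 0.31 per hour in knockdown (SE 0.0748, adjusted p = 0.00339), against a slope of −0.02 (SE 0.0748, adjusted p = 0.901) in control, where leaving out one library moved the slope between −0.10 and 0.02. The slope difference of −0.29 (SE 0.106, adjusted p = 0.512) did not pass, so these slopes are not shown to differ.

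Among the CCR4-type deadenylases, CNOT6 had a genotype effect of 1.11 (SE 0.216, adjusted p = 0.000351) and CNOT6L one of 1.14 (SE 0.206, adjusted p = 0.000184). CNOT6 fell by 0.22 per hour in knockdown (SE 0.0485, adjusted p = 0.00190), and its control slope of −0.10 (SE 0.0485, adjusted p = 0.118) did not pass. CNOT6L fell by 0.16 in knockdown (SE 0.0460, adjusted p = 0.0113) and by 0.26 in control (SE 0.0460, adjusted p = 0.000414). Without knockdown 7.5 h replicate 2 the knockdown slope of CNOT6L missed the threshold, at an adjusted p of 0.0524.

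PAN3, the adaptor of the PAN2-PAN3 nuclease, had a regular course. PAN3 in knockdown began the chase at 2.44% and 2.11%, stood at 1.51% and 1.41% after 1.5 h, then 0.733% and 0.777% by 4.5 h, and ended on 0.369% and 0.446%. In control, PAN3 began the chase at 1.08% and 1.06%, stood at 0.628% and 0.575% after 1.5 h, then 0.279% and 0.394% by 4.5 h, and ended on 0.225% and 0.131%. In each genotype every later time lay below the earlier one, and the genotypes did not overlap at any time. PAN3 fell by 0.31 per hour in knockdown (SE 0.0282, adjusted p = 7.46e-07) and by 0.30 in control (SE 0.0282, adjusted p = 1.34e-06), a 2-fold decline every 3.24 h and 3.36 h. It also fell relative to the common slope, by 0.16 in each genotype after centring. The genotype effect was 1.09 (SE 0.105, adjusted p = 3.89e-07).

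PAN2, the nuclease of that pair, varied more between libraries. PAN2 in knockdown began the chase at 2.0% and 2.17%, stood at 0.964% and 1.41% after 1.5 h, then 0.720% and 0.778% by 4.5 h, and ended on 0% and 0.682%. In control, PAN2 began the chase at 1.10% and 0.161%, stood at 0.110% and 0.724% after 1.5 h, then 0.464% and 0.535% by 4.5 h, and ended on 0.364% and 0.569%. One knockdown library was listed at 0 at 7.5 h and 1 control library was low at 0 h. PAN2 fell by 0.43 per hour in knockdown (SE 0.126, adjusted p = 0.0108), but by 0.21 (adjusted p = 0.158) without knockdown 7.5 h replicate 1, the library at 0, and its control slope was 0.04 (SE 0.126, adjusted p = 0.849). PAN2 shares exon sequence on the same strand with CNPY2, so its reads cannot be assigned with certainty.

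CNOT4, a ubiquitin ligase that associates with the complex, and PARN, a poly(A)-specific ribonuclease, joined PAN3 and CNOT2 among the members that fell fastest. CNOT4 fell by 0.36 per hour in knockdown (SE 0.0356, adjusted p = 1.44e-06) and by 0.27 in control (SE 0.0356, adjusted p = 2.43e-05). PARN fell by 0.33 in knockdown (SE 0.0364, adjusted p = 3.92e-06) and by 0.29 in control (SE 0.0364, adjusted p = 1.99e-05). CNOT2, part of the module that binds regulators, fell by 0.29 in knockdown (SE 0.0378, adjusted p = 2.09e-05) and by 0.28 in control (SE 0.0378, adjusted p = 3.46e-05). All 4 were also past the threshold downward in both genotypes after centring. Those centred calls were lost for CNOT2 in knockdown without knockdown 7.5 h replicate 2 (adjusted p = 0.158) and for PARN in control without control 7.5 h replicate 2 (adjusted p = 0.10).

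CNOT11, of the amino-terminal module with CNOT10, had the steepest control slope. CNOT11 in knockdown began the chase at 0.818% and 0.904%, stood at 0.530% and 0.559% after 1.5 h, then 0.505% and 0.511% by 4.5 h, and ended on 0.632% and 0.540%. In control, CNOT11 began the chase at 0.805% and 0.719%, stood at 0.718% and 0.208% after 1.5 h, then 0.214% and 0.337% by 4.5 h, and ended on 0.0855% and 0%. The genotypes overlapped at 1.5 h, and one control library was listed at 0 at 7.5 h. In control CNOT11 fell by 0.41 per hour (SE 0.0759, adjusted p = 0.000569), against a slope of −0.05 (SE 0.0759, adjusted p = 0.605) in knockdown that did not pass. Its genotype effect of 1.08 (SE 0.404, adjusted p = 0.0267) missed the threshold without knockdown 7.5 h replicate 1 or 2 or control 1.5 h replicate 2, with adjusted p of up to 0.0591 and effects of 0.78 to 1.29. CNOT10 had a genotype effect of 0.61 (SE 0.134, adjusted p = 0.000924), and CNOT3 one of 0.32 (SE 0.271, adjusted p = 0.297) that did not pass.

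The decapping class was higher in knockdown in 15 of 16 cases, all but EDC4, against 69.6% of all genes tested. After centring only LSM1 remained higher and LSM4 was lower. DCP2 is the decapping enzyme. DCP2 in knockdown began the chase at 1.86% and 1.30%, stood at 1.51% and 1.82% after 1.5 h, then 0.998% and 1.17% by 4.5 h, and ended on 0.674% and 0.897%. In control, DCP2 began the chase at 0.770% and 0.945%, stood at 0.633% and 0.830% after 1.5 h, then 0.619% and 0.684% by 4.5 h, and ended on 0.503% and 0.460%. The genotypes did not overlap at any time. Its genotype effect was 0.82 (SE 0.124, adjusted p = 3.55e-05), it fell by 0.14 per hour in knockdown (SE 0.0298, adjusted p = 0.00129) and by 0.10 in control (SE 0.0298, adjusted p = 0.0187), and these slopes were close to the common ones, at 0.01 and 0.04 after centring. The control call was lost without control 0 h replicate 2 or control 7.5 h replicate 2, at adjusted p of up to 0.0760.

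DCP1A and DCP1B are related activators of DCP2. DCP1A had a genotype effect of 1.15 (SE 0.117, adjusted p = 6.81e-07) and fell by 0.25 per hour in knockdown (SE 0.0357, adjusted p = 4.96e-05) and by 0.19 in control (SE 0.0357, adjusted p = 0.000613). DCP1B had the largest genotype effect of the 49 members, 1.98 (SE 0.285, adjusted p = 2.29e-05), a 3.94-fold difference. DCP1B in knockdown began the chase at 1.94% and 2.31%, stood at 0.905% and 1.57% after 1.5 h, then 2.39% and 1.08% by 4.5 h, and ended on 0.584% and 0.487%. In control, DCP1B began the chase at 0.657% and 0.507%, stood at 0.519% and 0.171% after 1.5 h, then 0.149% and 0.393% by 4.5 h, and ended on 0.10% and 0.130%. All 8 libraries of knockdown lay above the control libraries of their time, but the replicates lay well apart, most of all in knockdown at 4.5 h. Centred, the effect of DCP1B was 0.93 (SE 0.282, adjusted p = 0.0683) and did not pass. Its slope of −0.20 in knockdown lost its call without any one knockdown library other than replicate 1 at 1.5 and 4.5 h (adjusted p up to 0.185), and that of −0.23 in control without any one control library of 0 or 7.5 h (up to 0.0862).

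DDX6, the helicase that links deadenylation to decapping and to translational repression, fell in both genotypes. DDX6 in knockdown began the chase at 1.49% and 1.71%, stood at 1.24% and 1.53% after 1.5 h, then 0.820% and 0.730% by 4.5 h, and ended on 0.475% and 0.519%. In control, DDX6 began the chase at 0.881% and 0.825%, stood at 0.559% and 0.873% after 1.5 h, then 0.256% and 0.245% by 4.5 h, and ended on 0.205% and 0.221%. The genotypes did not overlap at any time of the chase, and the mean of each declined at every step. DDX6 fell by 0.22 per hour in knockdown (SE 0.0329, adjusted p = 7.03e-05) and by 0.26 in control (SE 0.0329, adjusted p = 1.96e-05), with a genotype effect of 1.08 (SE 0.120, adjusted p = 1.83e-06). PATL1, a decapping scaffold that binds DDX6 and the LSM ring, fell by 0.33 per hour in control (SE 0.0453, adjusted p = 4.59e-05) and by 0.12 in knockdown (SE 0.0453, adjusted p = 0.0399), a call lost without any one knockdown library other than 0 h replicate 1 (adjusted p up to 0.104). PATL1 in knockdown began the chase at 0.833% and 1.21%, stood at 1.14% and 1.47% after 1.5 h, then 0.799% and 0.599% by 4.5 h, and ended on 0.589% and 0.626%. In control, PATL1 began the chase at 0.713% and 0.994%, stood at 0.572% and 0.637% after 1.5 h, then 0.321% and 0.197% by 4.5 h, and ended on 0.141% and 0.10%. Its genotypes overlapped at 0 h and drew apart later.

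Of the scaffolds EDC3 and EDC4, EDC3 had a genotype effect of 1.09 (SE 0.257, adjusted p = 0.00163), and EDC4 was the only decapping gene that was not higher in knockdown. EDC4 in knockdown began the chase at 0.570% and 0.733%, stood at 1.01% and 1.07% after 1.5 h, then 0.945% and 1.18% by 4.5 h, and ended on 0.579% and 0.798%. In control, EDC4 began the chase at 0.681% and 0.772%, stood at 0.414% and 0.290% after 1.5 h, then 0.918% and 1.01% by 4.5 h, and ended on 0.812% and 1.83%. Only at 1.5 h did both knockdown libraries lie above control, and at 7.5 h both lay below it. The genotype effect of EDC4 was 0.16 (SE 0.278, adjusted p = 0.629), and the control slope was 0.16 (SE 0.0634, adjusted p = 0.0633), positive but not past the threshold unless centred (0.29, adjusted p = 0.00279). EDC4 shares exon sequence on the same strand with AC040162.3.

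XRN1 is the cytoplasmic 5′-to-3′ exonuclease, and XRN2 its nuclear relative. XRN1 in knockdown began the chase at 1.41% and 1.73%, stood at 1.01% and 1.31% after 1.5 h, then 0.669% and 0.506% by 4.5 h, and ended on 0.444% and 0.492%. In control, XRN1 began the chase at 0.619% and 0.739%, stood at 0.593% and 0.517% after 1.5 h, then 0.464% and 0.250% by 4.5 h, and ended on 0.156% and 0.190%. XRN1 genotypes did not overlap, and control replicates were farthest apart at 4.5 h. XRN1 fell by 0.23 per hour in knockdown (SE 0.0314, adjusted p = 3.58e-05) and by 0.23 in control (SE 0.0314, adjusted p = 4.38e-05), and its genotype effect was 1.01 (SE 0.128, adjusted p = 6.17e-06). XRN2 fell by 0.09 in knockdown (SE 0.0283, adjusted p = 0.0177), a call lost without knockdown 7.5 h replicate 2 (adjusted p = 0.105), and its control slope of −0.02 (SE 0.0283, adjusted p = 0.623) did not pass. XRN2 in knockdown began the chase at 1.30% and 1.36%, stood at 1.12% and 1.30% after 1.5 h, then 1.06% and 1.07% by 4.5 h, and ended on 0.873% and 0.732%. In control, XRN2 began the chase at 0.666% and 0.580%, stood at 0.419% and 0.495% after 1.5 h, then 0.404% and 0.570% by 4.5 h, and ended on 0.567% and 0.463%. XRN2 stayed within a narrow range in control, apart from knockdown at each time, and its genotype effect was 1.00 (SE 0.122, adjusted p = 4.33e-06). Relative to the common slope XRN2 was positive, at 0.06 in knockdown and 0.12 in control, where it passed (adjusted p = 0.00672). The difference between the slopes of XRN1 and XRN2 was not tested.

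**Figure D4:**
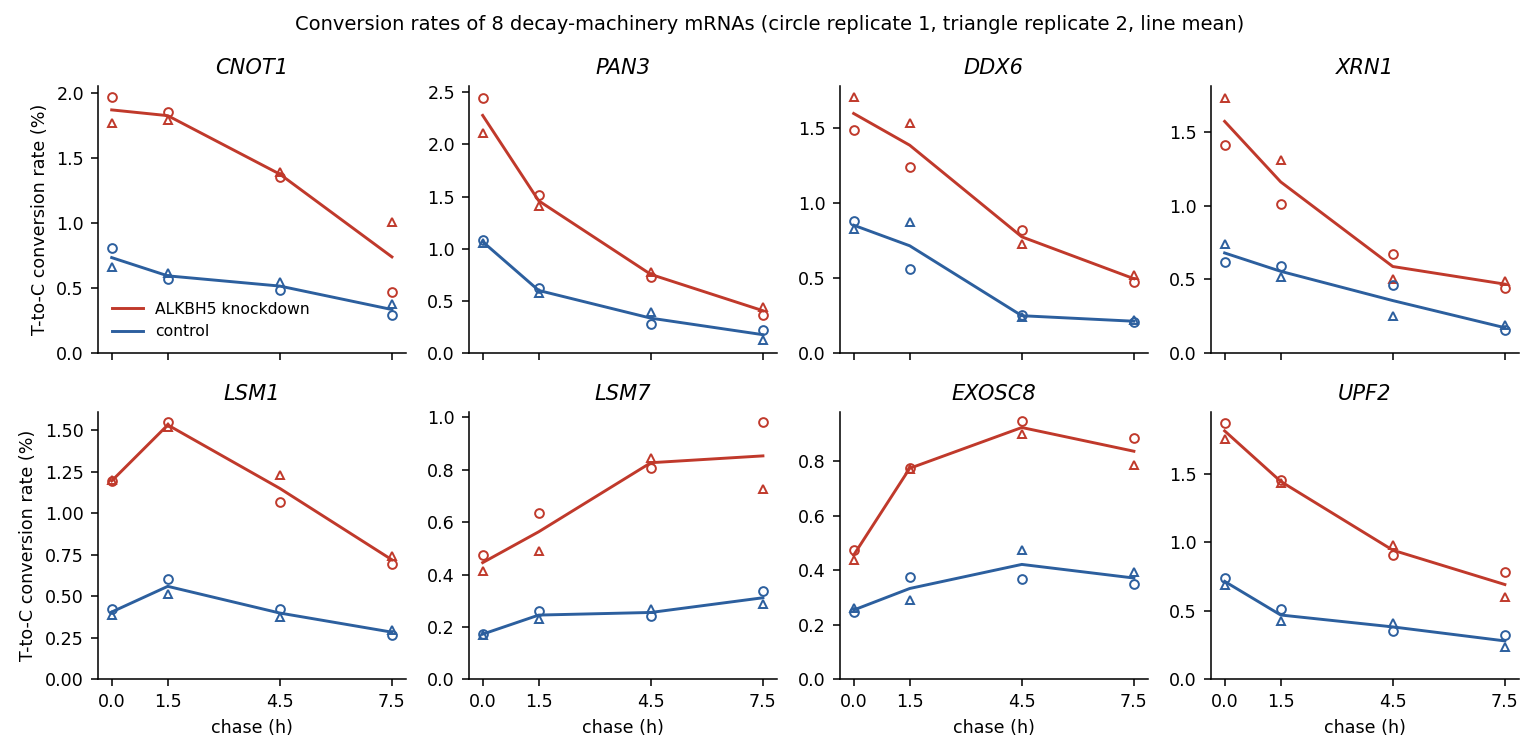
Conversion rates (percent, vertical) of 8 members, chosen after their values were seen, against hours of chase. Knockdown (red) lies above control (blue) in each panel. CNOT1, PAN3, DDX6, XRN1 and UPF2 go down with time, LSM1 peaks at 1.5 h, and LSM7 and EXOSC8 are lowest at 0 h.

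LSM1 to LSM7 form a ring that binds the oligoadenylated 3′ end of a shortened transcript and promotes decapping, and LSM2 to LSM7 also join LSM8 in the nucleus to bind U6 RNA. As a median the 7 mRNAs stood below all genes at the end of the pulse, though LSM1 in knockdown and LSM4 in control did not. The median rate of the 7 was 0.622%, 0.711%, 0.864% and 0.806% in knockdown and 0.237%, 0.262%, 0.378% and 0.308% in control at 0, 1.5, 4.5 and 7.5 h. All 7 were higher in knockdown, against 69.6% of all genes tested, with a median effect of 1.26. Centred, that median was 0.21, with LSM1 past the threshold upward and LSM4 past it downward. LSM3, LSM6 and LSM7 rose in knockdown, LSM3, LSM5 and LSM7 rose in control, and LSM1 fell in both. Of all genes tested, 4.06% rose in knockdown and 3.45% in control. After centring LSM2 to LSM7 rose in both genotypes, against 17.7% of all genes in knockdown and 17.6% in control. These centred calls were not lost without any one library, while the centred slopes of LSM1 did not pass.

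LSM7 had the clearest rise. LSM7 in knockdown began the chase at 0.476% and 0.415%, stood at 0.637% and 0.490% after 1.5 h, then 0.808% and 0.846% by 4.5 h, and ended on 0.981% and 0.726%. In control, LSM7 began the chase at 0.174% and 0.171%, stood at 0.260% and 0.231% after 1.5 h, then 0.242% and 0.269% by 4.5 h, and ended on 0.335% and 0.287%. Every library at 4.5 and 7.5 h lay above every library at 0 h of its genotype, and the genotypes did not overlap. LSM7 rose by 0.12 log2 per hour in knockdown (SE 0.0221, adjusted p = 0.000519) and by 0.08 in control (SE 0.0221, adjusted p = 0.00997), and its genotype effect was 1.26 (SE 0.0816, adjusted p = 6.99e-09). The control call was lost without control 7.5 h replicate 1, at an adjusted p of 0.0532.

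LSM3 moved the same way with little spread between replicates. LSM3 in knockdown began the chase at 0.481% and 0.492%, stood at 0.674% and 0.676% after 1.5 h, then 0.634% and 0.676% by 4.5 h, and ended on 0.795% and 0.759%. In control, LSM3 began the chase at 0.171% and 0.185%, stood at 0.220% and 0.208% after 1.5 h, then 0.292% and 0.278% by 4.5 h, and ended on 0.262% and 0.283%. Here too the 0 h libraries were the lowest of each genotype. LSM3 rose by 0.07 per hour in knockdown (SE 0.0205, adjusted p = 0.0161) and by 0.07 in control (SE 0.0205, adjusted p = 0.0144), with a genotype effect of 1.28 (SE 0.0685, adjusted p = 1.14e-09). These calls were lost without either knockdown 0 h library or knockdown 7.5 h replicate 1 (adjusted p up to 0.0729), and without control 0 h replicate 1 (0.0592). LSM6 rose by 0.12 in knockdown (SE 0.0310, adjusted p = 0.00422), and its control slope was 0.07 (SE 0.0310, adjusted p = 0.0735). LSM5 rose by 0.07 in control (SE 0.0253, adjusted p = 0.0324), a call lost without control 0 h replicate 1, control 1.5 h replicate 1 or control 7.5 h replicate 2 (up to 0.106), and its knockdown slope was 0.06 (SE 0.0253, adjusted p = 0.0619).

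LSM1, the subunit that makes the ring cytoplasmic, was higher in knockdown than the common shift and had a course of its own. LSM1 in knockdown began the chase at 1.19% and 1.20%, stood at 1.55% and 1.52% after 1.5 h, then 1.07% and 1.23% by 4.5 h, and ended on 0.694% and 0.745%. In control, LSM1 began the chase at 0.422% and 0.389%, stood at 0.607% and 0.513% after 1.5 h, then 0.422% and 0.376% by 4.5 h, and ended on 0.268% and 0.299%. In both genotypes the 1.5 h libraries were the highest and the 7.5 h libraries the lowest. The genotype effect was 1.36 (SE 0.0649, adjusted p = 3.25e-10), with the smallest p of the 49 members, and centred it was 0.31 (SE 0.0632, adjusted p = 0.00777), though −0.37 when genes of any CPM were kept. LSM1 fell by 0.11 per hour in knockdown (SE 0.0297, adjusted p = 0.00815), lost without knockdown 7.5 h replicate 1 (adjusted p = 0.0653), and by 0.08 in control (SE 0.0297, adjusted p = 0.0435), lost without any one control library of 1.5 or 7.5 h, control 4.5 h replicate 2 or knockdown 4.5 h replicate 1 (up to 0.196).

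LSM4 was the only member past the threshold with a centred genotype effect below 0, although EDC4, CNOT3, CNOT8 and CNOT10 had lower centred values that did not pass. LSM4 in knockdown began the chase at 0.746% and 0.925%, stood at 1.23% and 1.09% after 1.5 h, then 1.35% and 1.25% by 4.5 h, and ended on 0.855% and 1.23%. In control, LSM4 began the chase at 0.594% and 0.660%, stood at 0.616% and 0.682% after 1.5 h, then 0.710% and 0.784% by 4.5 h, and ended on 0.598% and 0.799%. Knockdown lay above control at each time. The genotype effect was 0.62 (SE 0.104, adjusted p = 0.000100), the lowest of the 7 LSM genes, against a centred effect of −0.43 (SE 0.0997, adjusted p = 0.0175), and neither centred call of LSM1 or LSM4 was lost without any one library.

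Exosome and DIS3 genes were higher in knockdown in 13 of 13 cases, against 69.6% of all genes tested, and none of them after centring. During the chase the 10 EXOSC genes, which include the cap and ring subunits, had a median slope of −0.07 in knockdown and −0.04 in control, while DIS3, DIS3L and DIS3L2 had one of −0.27 and −0.24. Centred, the EXOSC median was 0.08 in knockdown and 0.10 in control, and the DIS3 family median −0.12 and −0.10. The difference between the families was not tested.

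EXOSC8, a ring subunit, rose in knockdown. EXOSC8 in knockdown began the chase at 0.472% and 0.438%, stood at 0.775% and 0.771% after 1.5 h, then 0.945% and 0.900% by 4.5 h, and ended on 0.884% and 0.787%. In control, EXOSC8 began the chase at 0.246% and 0.261%, stood at 0.377% and 0.289% after 1.5 h, then 0.369% and 0.473% by 4.5 h, and ended on 0.349% and 0.393%. The 0 h libraries were the lowest of each genotype, and those of knockdown at 4.5 h the highest. EXOSC8 rose by 0.09 per hour in knockdown (SE 0.0299, adjusted p = 0.0199), lost without either knockdown 0 h library (adjusted p up to 0.105), and its control slope of 0.06 (SE 0.0299, adjusted p = 0.121) did not pass. Its genotype effect was 0.99 (SE 0.0746, adjusted p = 3.14e-08). Relative to the common slope EXOSC7, EXOSC8 and EXOSC9 rose in both genotypes and EXOSC5 in control, the knockdown call of EXOSC7 being lost without knockdown 0 h or 7.5 h replicate 2 (adjusted p up to 0.129).

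EXOSC4 and EXOSC3, subunits of the ring and of the cap, went down instead. EXOSC4 in knockdown began the chase at 1.40% and 1.31%, stood at 1.57% and 1.29% after 1.5 h, then 0.816% and 0.674% by 4.5 h, and ended on 0.479% and 0.423%. In control, EXOSC4 began the chase at 0.459% and 0.491%, stood at 0.667% and 0.499% after 1.5 h, then 0.325% and 0.327% by 4.5 h, and ended on 0.184% and 0.202%. EXOSC4 was highest at 0 and 1.5 h and lowest at 7.5 h in each genotype. It fell by 0.22 per hour in knockdown (SE 0.0295, adjusted p = 2.89e-05) and by 0.17 in control (SE 0.0295, adjusted p = 0.000323), with a genotype effect of 1.19 (SE 0.0939, adjusted p = 5.05e-08). EXOSC3 fell by 0.08 in knockdown (SE 0.0278, adjusted p = 0.0347), lost without any one knockdown library of 1.5 or 7.5 h (adjusted p up to 0.146), and by 0.13 in control (SE 0.0278, adjusted p = 0.00209). EXOSC9, with 1.08 (SE 0.142, adjusted p = 9.58e-06), had slopes of 0.01 in knockdown and 0.04 in control, neither past the threshold. EXOSC5 had a control slope of 0.18 (SE 0.0788, adjusted p = 0.0793), the highest of the members, which did not pass.

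DIS3 is the main nuclease of the nuclear exosome, DIS3L its cytoplasmic relative, and DIS3L2 acts outside the exosome on uridylated RNAs. DIS3 in knockdown began the chase at 1.80% and 2.09%, stood at 1.05% and 1.72% after 1.5 h, then 1.02% and 0.823% by 4.5 h, and ended on 0.534% and 0.289%. In control, DIS3 began the chase at 0.975% and 0.543%, stood at 0.652% and 0.279% after 1.5 h, then 0.423% and 0.455% by 4.5 h, and ended on 0.0641% and 0.259%. DIS3 replicates differed from each other up to several-fold at 7.5 h, but the genotypes did not overlap. DIS3 fell by 0.27 per hour in knockdown (SE 0.0614, adjusted p = 0.00193) and by 0.24 in control (SE 0.0614, adjusted p = 0.00591). DIS3L fell by 0.27 in knockdown (SE 0.0936, adjusted p = 0.0309) and by 0.28 in control (SE 0.0936, adjusted p = 0.0283), and DIS3L2 by 0.24 in knockdown (SE 0.0568, adjusted p = 0.00284) and by 0.19 in control (SE 0.0568, adjusted p = 0.0168). Without control 7.5 h replicate 1 the control calls of all 3 were lost, with adjusted p of up to 0.266. DIS3L was listed at 0 in that library, and its knockdown call was lost without any one knockdown library of 0 or 7.5 h or 1.5 h replicate 2 (up to 0.0929). Its control call was also lost without control 0 h replicate 2, 1.5 h replicate 1 or 7.5 h replicate 2, and that of DIS3L2 without control 0 h replicate 1. The genotype effects were 1.28 (SE 0.236, adjusted p = 0.000224), 1.56 (SE 0.370, adjusted p = 0.00170) and 1.16 (SE 0.219, adjusted p = 0.000280) for DIS3, DIS3L and DIS3L2. EXOSC6 fell by 0.21 in knockdown (SE 0.0724, adjusted p = 0.0266), lost without knockdown 0 h or 1.5 h replicate 2 or either 7.5 h library (adjusted p up to 0.0730), and by 0.26 in control (SE 0.0724, adjusted p = 0.00874). EXOSC10 fell by 0.13 in knockdown (SE 0.0378, adjusted p = 0.0123), lost without knockdown 0 h replicate 1 (adjusted p = 0.0754).

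The 7 genes of nonsense-mediated decay were all higher in knockdown, against 69.6% of all genes tested. Their median effect of 0.99 came to −0.06 after centring, where none passed. Slopes were below 0 for the 7 in both genotypes, with 6 called in knockdown and 5 in control. Of all 16241 genes tested, 37.9% in knockdown and 34.4% in control were called falling. Only 4032 of them in knockdown and 4287 in control had a slope above 0, so a slope below 0 was common among all genes. No centred slope of the 7 passed. UPF2 bridges UPF1 to the exon junction complex. UPF2 in knockdown began the chase at 1.87% and 1.76%, stood at 1.46% and 1.43% after 1.5 h, then 0.904% and 0.982% by 4.5 h, and ended on 0.781% and 0.603%. In control, UPF2 began the chase at 0.743% and 0.687%, stood at 0.512% and 0.427% after 1.5 h, then 0.352% and 0.413% by 4.5 h, and ended on 0.322% and 0.239%. Each later time lay below the earlier one in both genotypes, and the genotypes did not overlap. UPF2 fell by 0.18 per hour in knockdown (SE 0.0213, adjusted p = 8.18e-06) and by 0.15 in control (SE 0.0213, adjusted p = 5.97e-05), a 2-fold decline every 5.58 h and 6.75 h, and its genotype effect was 1.30 (SE 0.0804, adjusted p = 4.62e-09).

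UPF3A and UPF3B are paralogues that link the pathway to the exon junction complex. UPF3A in knockdown began the chase at 1.78% and 1.82%, stood at 1.30% and 1.88% after 1.5 h, then 0.853% and 1.09% by 4.5 h, and ended on 0.378% and 0.472%. In control, UPF3A began the chase at 0.564% and 0.812%, stood at 0.603% and 0.727% after 1.5 h, then 0.676% and 0.454% by 4.5 h, and ended on 0.342% and 0.211%. The UPF3A genotypes did not overlap at any time. UPF3A fell by 0.26 per hour in knockdown (SE 0.0388, adjusted p = 6.13e-05) and by 0.15 in control (SE 0.0388, adjusted p = 0.00502), a control call lost without control 7.5 h replicate 2 (adjusted p = 0.0571). UPF3B in knockdown began the chase at 1.02% and 1.22%, stood at 1.24% and 1.26% after 1.5 h, then 1.11% and 1.24% by 4.5 h, and ended on 0.922% and 0.657%. In control, UPF3B began the chase at 0.866% and 0.488%, stood at 0.453% and 0.610% after 1.5 h, then 0.531% and 0.685% by 4.5 h, and ended on 0.356% and 0.292%. UPF3B stayed near its starting rate in knockdown until 4.5 h, where its slope of −0.07 (SE 0.0366, adjusted p = 0.152) did not pass, and fell by 0.10 in control (SE 0.0366, adjusted p = 0.0395), lost without control 0 h replicate 1, 1.5 h replicate 2 or either 7.5 h library (up to 0.217). Their genotype effects were 0.96 (SE 0.161, adjusted p = 9.32e-05) for UPF3A and 0.99 (SE 0.129, adjusted p = 8.23e-06) for UPF3B.

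UPF1, the helicase at the centre of the pathway, had a genotype effect of 1.34 (SE 0.274, adjusted p = 0.000521) and fell by 0.21 in knockdown (SE 0.0705, adjusted p = 0.0275), lost without knockdown 0 h replicate 2, either 1.5 h library or 7.5 h replicate 2 (adjusted p up to 0.0839). SMG1, the kinase that phosphorylates UPF1, fell by 0.22 in knockdown (SE 0.0503, adjusted p = 0.00213) and by 0.21 in control (SE 0.0503, adjusted p = 0.00425). SMG5, an adaptor of phosphorylated UPF1, fell by 0.15 in knockdown (SE 0.0581, adjusted p = 0.0420) and by 0.18 in control (SE 0.0581, adjusted p = 0.0257). The SMG5 calls were lost in knockdown without any one knockdown library other than 0 h and 4.5 h replicate 2, or without either control 1.5 h library (up to 0.259), and without either control 0 h library in control (up to 0.0947). SMG6, the endonuclease, fell by 0.23 in knockdown (SE 0.0404, adjusted p = 0.000274), and its control slope of −0.07 (SE 0.0404, adjusted p = 0.222) did not pass. SMG6 in knockdown began the chase at 2.06% and 2.65%, stood at 1.70% and 1.34% after 1.5 h, then 0.969% and 0.774% by 4.5 h, and ended on 0.843% and 0.504%. In control, SMG6 began the chase at 0.912% and 0.656%, stood at 0.927% and 0.678% after 1.5 h, then 0.835% and 0.714% by 4.5 h, and ended on 0.601% and 0.462%. The SMG6 genotypes were apart at 0 and 1.5 h and overlapped at 4.5 and 7.5 h.

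The question whether the knockdown changed how fast these mRNAs lose label was addressed by the slope difference. By limma, none of the 49 members passed, nor did any of the 16241 genes, at the threshold of 0.05 after adjustment. Unadjusted p was under 0.05 for 6 members and for 1269 genes. The 6 members were CNOT11 (0.35, SE 0.107, adjusted p = 0.447), PATL1 (0.20, SE 0.0641, adjusted p = 0.448), SMG6 (−0.17, SE 0.0572, adjusted p = 0.488), CNOT8 (−0.29, SE 0.106, adjusted p = 0.512), PAN2 (−0.47, SE 0.178, adjusted p = 0.525) and EXOSC5 (−0.25, SE 0.111, adjusted p = 0.620). Positive values mean a shallower decline in knockdown. Of the 6, 3 belong to deadenylation, a class of 13 members, and the split by class was not tested. CNOT11 in control and PAN2 in knockdown each had a 7.5 h library listed at 0. Among genes picked as examples of a regular course, the difference was small against its error in PAN3 (−0.01, SE 0.0399, adjusted p = 0.971), XRN1 (0.0018, SE 0.0445, adjusted p = 0.996) and LSM3 (−0.0026, SE 0.0290, adjusted p = 0.991). In UPF2 it was about the size of its error (−0.03, SE 0.0301, adjusted p = 0.852). The median difference over the members was −0.03 log2 per hour, against −0.01 over all genes.

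The LSM genes have the shortest coding sequences of the members, and their median slope was 0.06 in knockdown and 0.07 in control, while the highest single slope in control was that of EXOSC5. The coding length of the principal transcript had a median of 306 bases for LSM1 to LSM7, 873 for the exosome class, 1917 for deadenylation and 3354 for nonsense-mediated decay. Across the 49 members, which are not independent replicates, Spearman's rho between coding length and slope was −0.56 in knockdown and −0.43 in control. Without LSM1 to LSM7 it was −0.35 and −0.21 (n = 42), and over 12343 protein-coding genes −0.27 and −0.25. Other measures gave weaker values across the 49 members, −0.46 and −0.38 for total transcript length and −0.19 and −0.22 for 3′ UTR length. Without LSM1 to LSM7 total length gave −0.33 and −0.24, and 3′ UTR length −0.25 and −0.28. In control, coding length was then the weakest of these measures. Over the protein-coding genes the values were −0.31 and −0.29 for total length, and −0.23 in each genotype for 3′ UTR length.

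**Figure D5:**
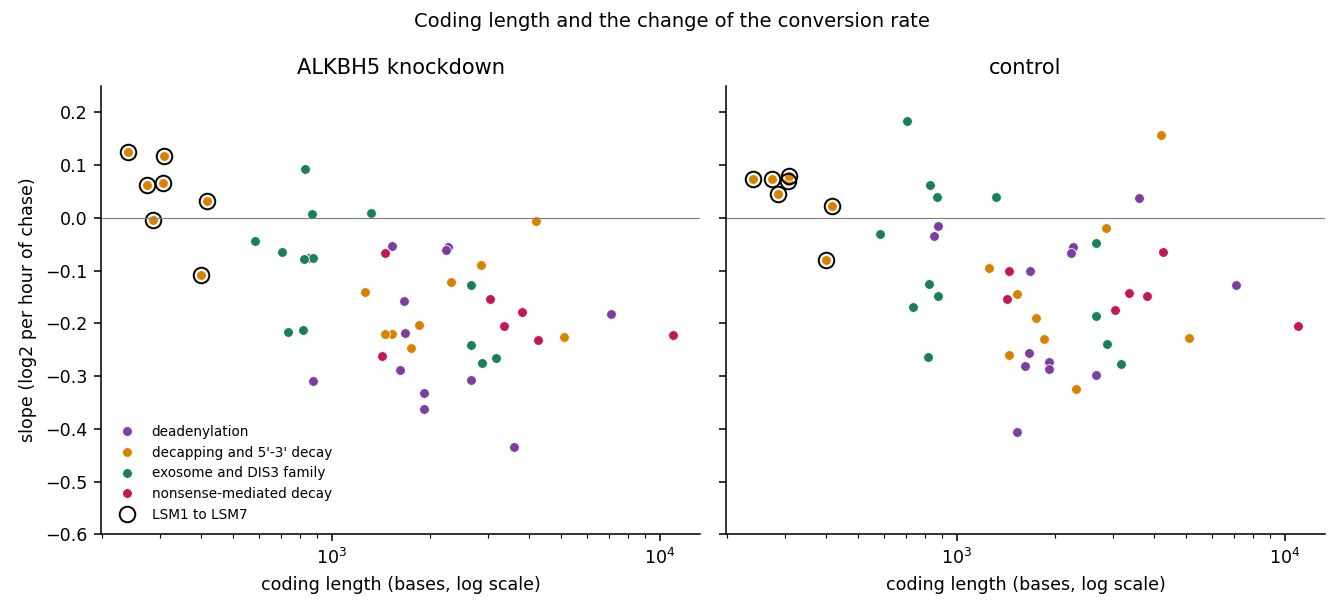
Slope of the log2 rate per hour of chase (vertical) against coding length in bases (horizontal, log scale) for the 49 members, in knockdown (left) and control (right), with LSM1 to LSM7 ringed. The ringed genes are the shortest, and 5 of the 7 in knockdown and 6 of the 7 in control have slopes above 0, as do all 7 in each genotype after centring. Of all 16241 genes tested, 4032 in knockdown and 4287 in control have slopes above 0, and 8876 and 9094 after centring.

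A wider list of 56 genes around the same machinery, not members, was tested in full. Of these, 53 were higher in knockdown and none was lower, against 69.6% and 0.172% of all genes tested, with a median effect of 1.15. Centred, against 1.45% and 4.59% of all genes, none was higher and 2 were lower, PABPC1, the cytoplasmic poly(A)-binding protein (−0.44, SE 0.0533, adjusted p = 0.000115), and SKIC8, a subunit of the Ski complex that feeds the exosome (−0.64, SE 0.146, adjusted p = 0.0170). In knockdown 38 fell (37.9% of all genes) and MAGOH, a core protein of the exon junction complex, rose by 0.08 per hour (adjusted p = 0.00529), and in control 36 fell (34.4% of all genes). The median slope was −0.18 in each genotype. The smallest p in control belonged to TENT2, a poly(A) polymerase, at −0.32, HBS1L, a ribosome-rescue factor, at −0.24, TNRC6C and TNRC6B, microRNA effectors, at −0.41 and −0.24, BTG1, a CCR4-NOT recruiter, at −0.37, and TUT7, a terminal uridylyltransferase, at −0.28 log2 per hour. None of the 56 passed in the slope difference.

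Counting can blur some members, since the strand setting of the counts is not given in the sources used here. Exons of CNOT10, PAN2, EDC4, EXOSC3, EXOSC4, EXOSC7 and DIS3L2 overlap another annotated gene on the same strand, and those of LSM3, LSM7, EXOSC8 and EXOSC9 one on the opposite strand, as do others. Annotated pseudogenes carry the names of SMG1 (7 copies), LSM3 (4), UPF3A (3), CNOT7, DDX6, LSM1 and EXOSC3 (2 each), so rates of these genes may include reads of copies.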

How the data were processed

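The authors' deposited table gives, for each gene and library, a fraction between 0 and 1, read here from the assay and the values as the T-to-C conversion rate and multiplied by 100. Per the file headers it also holds 1 CPM column, whose library is not stated; its values are whole reads at a step of 0.0265, for 37800087 reads, and served only to filter genes and set the variance trend, since no count test is possible from 1 column. The submitters' processing notes name CASAVA, HISAT2 2.1.0 and the hg38 build. The sources used here give neither the formula of the rate, nor the annotation, nor the depth behind a rate, so no counting interval was made. The column prefix C matches the control label, and the remaining prefix, S, was assigned to the knockdown because no other genotype was left.

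Rates in percent plus 0.05 were put on the log2 scale, so fold changes of low rates are understated, and fitted with limma 3.58.1 in R 4.3.3 over all 16 libraries, with a variance trend in log2(CPM + 0.01). Tests covered genes that reached 1 CPM and were not listed at 0 in every library, with Benjamini-Hochberg adjustment over all 16241 at 0.05. All adjusted p-values in the text are from these fits. The genotype effect used time as a factor, the effects at single times used 8 group means, and slopes used an intercept and a slope per hour for each genotype. Halving times are 1 over the slope, on the same scale. The scripts were tested on simulated data. Transcript lengths, coordinates and motifs came from the APPRIS principal transcript of GENCODE 29 on GRCh38 (Python 3). The symbol of LSM4 was taken from its Ensembl identifier. The members and lists were chosen with earlier results of these data known. Members given in full were those with the smallest p for the genotype effect and the steepest and shallowest control slopes in each class, those called after centring, and paralogue pairs. Alternatives were other pseudocounts and CPM minimums, no variance trend, rates of 0 as missing, centring, a replicate block and leaving out each library. A few results on single marker genes are not reported here.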

Additional observations from a re-analysis of the deposited data

How the results depend on the processing

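Counts of members past the threshold moved within 1.5 times under pseudocounts of 0.02 and 0.1 and a CPM minimum of 5. Centred, 1 member was higher in knockdown over all times and 0 at 0, 1.5, 4.5 and 7.5 h each, and 5 fell in knockdown and 8 in control. With no CPM minimum the centred genotype effect called 17 members and the centred knockdown slope 6, the centred effect of LSM1 turned to −0.37, and the centred control slopes of DDX6 and XRN1 turned to 0.0110 and 0.0433; the cause was not tested. The centred genotype effect called 1 member without a variance trend and 6 with rates of 0 as missing, where fewer values enter the fit. Shares of all genes were not counted with no CPM minimum, without a variance trend or with rates of 0 as missing.

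Leaving out each library in turn gave these lowest and highest counts: higher in knockdown 44 to 46 over all times, 22 to 34 at 0 h, 22 to 37 at 1.5 h (lowest without knockdown 1.5 h replicate 2), 20 to 33 at 4.5 h (lowest without knockdown 4.5 h replicate 1) and 19 to 27 at 7.5 h; centred 2 to 4; falling 21 to 31 in knockdown and 19 to 25 in control; slope difference 0 to 0; centred slopes 13 to 16 in knockdown and 18 to 21 in control. Of the single-gene calls, 44 of 45 genotype effects, 20 of 35 knockdown slopes and 16 of 28 control slopes were kept without any one library. Some values past no threshold changed sign. Knockdown slopes ranged from −0.0283 to 0.0808 for EXOSC7, −0.0197 to 0.0635 for EXOSC9, −0.0436 to 0.0419 for EDC4, −0.0318 to 0.0287 for LSM2 and −0.206 to 0.0220 for EXOSC5. Control slopes ranged from −0.0967 to 0.0236 for CNOT8, −0.0362 to 0.140 for PAN2, −0.0588 to 0.0142 for EXOSC1, −0.110 to 0.0377 for CNOT3 and −0.0461 to 0.00145 for CNOT7. The genotype effect of EDC4 ranged from −0.00292 to 0.345.

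No pairing by replicate number was seen, as same-numbered deviations correlated between −0.0239 and 0.0396 over 28 pairs of groups. These correlations cannot tell whether same-numbered libraries came from a shared culture. With the replicate block 45 members were higher in knockdown over all times, 31 fell in knockdown and 24 in control, and 0 passed in the slope difference.

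The table gives no number of T bases, so a low rate or a rate of 0 cannot be told from a thinly covered gene. Unlabelled cells were not analysed here, so the mismatch background is unmeasured and weighs most on the lowest rates, those of control at 7.5 h.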
